A study of Mus musculus with 3 samples.

Results

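The regions described here are the CAP-D3 peaks of mouse chromosome 11, taken as every listed peak on that chromosome in the peak lists of Rb+/+ and RbΔL/ΔL primary mouse embryonic fibroblasts. Chromosome 11 held 618 of the 8195 Rb+/+ peaks and 437 of the 6437 RbΔL/ΔL peaks, together 1055 of 14632. The chromosome was chosen by its measured number of peaks per Mb, the highest of all chromosomes, so density is given as a description and supports nothing. The 3 samples of the study were a CAP-D3 chromatin immunoprecipitation (ChIP-seq) from proliferating Rb+/+ fibroblasts at passage 4, the same from fibroblasts homozygous for the RbΔL allele, and input DNA, whose values were not analysed here. The protein made from the RbΔL allele is mutated in the cleft that binds LXCXE motifs of partner proteins. Each genotype had 1 library of unknown read depth. No test of genotype was possible, and intervals (95%) cover counting error only.

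CAP-D3 is a subunit of condensin II, a ring-shaped complex that folds and compacts chromosomes and is present in the nucleus throughout the cell cycle. The retinoblastoma protein, best known for restraining E2F transcription factors, also contacts condensin II. Mouse chromosome 11 is known as one of the gene-rich autosomes. Its centromere is at the end where coordinates start, called proximal here. All positions are mm9, and whether a site is genic, exonic or intronic was not determined because no annotation of that build was used. No peak sequence is shown for the same reason.

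CAP-D3 peaks were most numerous on the distal side of chromosome 11 in both genotypes. Rb+/+ cells had 195 peaks on the proximal side of the midpoint and 423 on the distal side, or 3.20 and 6.94 peaks per Mb. RbΔL/ΔL cells had 147 and 290, or 2.41 and 4.76 per Mb. The proximal side was ordinary among the 19 autosomes, ranking 7 from the top in each list, against a pooled 2.77 (Rb+/+) and 2.17 (RbΔL/ΔL) per Mb for the proximal sides of the other autosomes. The distal side ranked first in each list. The next were the distal sides of chromosome 15, with 4.79 per Mb in Rb+/+ and 4.27 in RbΔL/ΔL. Relative to the other autosomes, the distal side of chromosome 11 was 1.99 times as dense in Rb+/+ and 1.70 times in RbΔL/ΔL, and the proximal side 1.16 and 1.11 times. Most of the excess therefore lay distally.

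**Figure D1:**
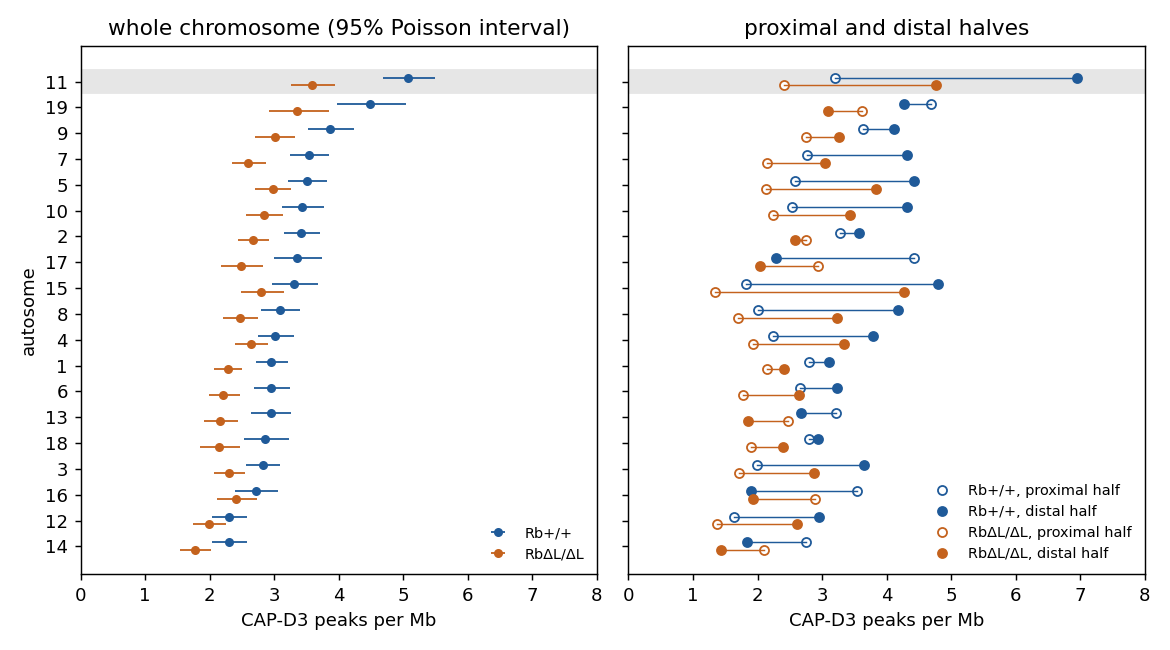
CAP-D3 peaks per Mb on each autosome, over the whole chromosome with exact 95% Poisson intervals (left) and on the proximal (open) and distal (filled) sides of its midpoint (right), in Rb+/+ (blue) and RbΔL/ΔL (orange). On chromosome 11, shaded, the distal values of 6.94 and 4.76 per Mb lie to the right of all others of the same list, while the proximal values of 3.20 and 2.41 lie among the rest.

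Many autosomes were denser distally, 14 of 19 in Rb+/+ and 13 of 19 in RbΔL/ΔL, but mostly by less. On chromosome 11 the distal-to-proximal ratio of density was 2.17 in Rb+/+, with an interval of 1.83 to 2.58. It was 1.97 in RbΔL/ΔL, with an interval of 1.61 to 2.42. These ratios use the full length, although the assembled sequence begins at 3 Mb. With midpoint and length taken from 3 Mb on, the ratio was 2.01 in Rb+/+ (interval 1.70 to 2.39). In RbΔL/ΔL it was then 1.89 (interval 1.55 to 2.32). The other autosomes were not recomputed in that way. Over the full length, chromosome 11 ranked 2 of 19 in each list, after chromosome 15 with 2.64 and 3.20. Over the other autosomes together the ratio was 1.26 and 1.29. Chromosome 19, the next in overall density, had ratios below 1 in both lists, at 0.910 and 0.856. Chromosome 17 had 0.517 and 0.693.

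In steps of 10 Mb the profile fell from a moderately dense start to a sparse stretch and then rose to denser steps. The first step, with 7 Mb of assembled sequence, held 30 Rb+/+ and 24 RbΔL/ΔL peaks, or 4.29 and 3.43 per Mb. In RbΔL/ΔL this was close to the 3.4 per Mb from 80 to 90 Mb and the 3.5 from 110 to 120 Mb. The step from 10 to 20 Mb held 12 Rb+/+ and 16 RbΔL/ΔL peaks, the fewest of any full step in each list. From 20 to 50 Mb, a step held 25 to 34 Rb+/+ and 18 to 26 RbΔL/ΔL peaks. From 60 Mb to 120 Mb, each step held 59 to 76 Rb+/+ peaks and 34 to 63 RbΔL/ΔL peaks. The highest Rb+/+ step was 70 to 80 Mb, with 76 peaks against 56 in RbΔL/ΔL. The highest RbΔL/ΔL step was 90 to 100 Mb, with 63 peaks against 72 in Rb+/+. Thus the lists shared the sparse and the dense parts, and differed in which dense step came first.

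**Figure D2:**
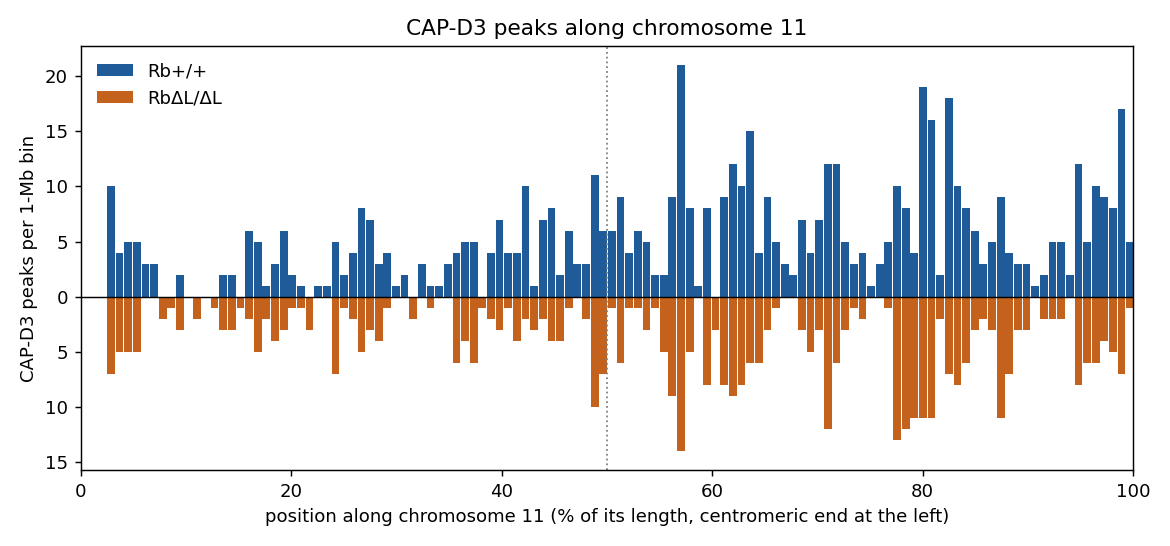
CAP-D3 peaks in each 1-Mb bin of chromosome 11, Rb+/+ upward in blue and RbΔL/ΔL downward in orange, against position as percent of the chromosome's length with the midpoint dotted. The fullest bin, with 21 Rb+/+ and 14 RbΔL/ΔL peaks, is the same in both lists. The bins of the distal side are fuller on average than those of the proximal side. Even so, 1 distal bin is empty in Rb+/+ and 7 in RbΔL/ΔL.

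The fullest megabase was 69 to 70 Mb in both genotypes. It held 21 Rb+/+ peaks, 8 of them overlapped by a RbΔL/ΔL peak, and 14 RbΔL/ΔL peaks, 8 of them overlapped in return. It was also rich in strong sites, with 8 Rb+/+ and 6 RbΔL/ΔL peaks at a score of 100 or more. The score is the value that the authors' peak caller gave each peak. It ranks peaks within a list, starts at 50.02 in both lists, and is not comparable in size between them.

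The other Rb+/+ bins among the 5 fullest were 97 to 98 Mb with 19 peaks, 100 to 101 Mb with 18, 120 to 121 Mb with 17 and 98 to 99 Mb with 16. RbΔL/ΔL cells had 11, 7, 7 and 11 peaks in these bins. After 69 to 70 Mb, the fullest RbΔL/ΔL bins were 94 to 95 Mb with 13 peaks, and 86 to 87 and 95 to 96 Mb with 12 each. Rb+/+ cells had 10, 12 and 8 peaks there. Bins picked as the fullest of a list tend to hold more of that list's peaks than of the other's, so these counts do not compare the genotypes. The next place was tied at 11 peaks between 96 to 97, 97 to 98, 98 to 99 and 106 to 107 Mb. The bin from 96 to 97 Mb held only 4 Rb+/+ peaks, and its surplus of 7 was the greatest in favour of RbΔL/ΔL on the chromosome. The greatest surplus in favour of Rb+/+ was 11 peaks, at 100 to 101 Mb.

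From 94 to 99 Mb, neighbouring bins therefore leaned in opposite directions: RbΔL/ΔL led in the 3 bins from 94 to 97 Mb, and Rb+/+ in the 2 from 97 to 99 Mb. Of the 119 bins from 3 Mb on, where the assembled sequence begins, 73 held more Rb+/+ peaks, 31 more RbΔL/ΔL peaks and 15 equal numbers. The bin counts of the lists ran together along the chromosome, with a Spearman's rho of 0.70 over 119 bins. For peaks without a counterpart in the other list rho was 0.56. On the other 18 autosomes the median rho was 0.62 over all peaks and 0.51 without counterparts, and chromosome 11 ranked 5 of 19 in each. Bins share the sequence and its mappability between the lists and are not replicates, so no p-value is attached. The 10 fullest bins of each list had 4 in common and the 20 fullest had 14, with ties taken in order of position.

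**Figure D3:**
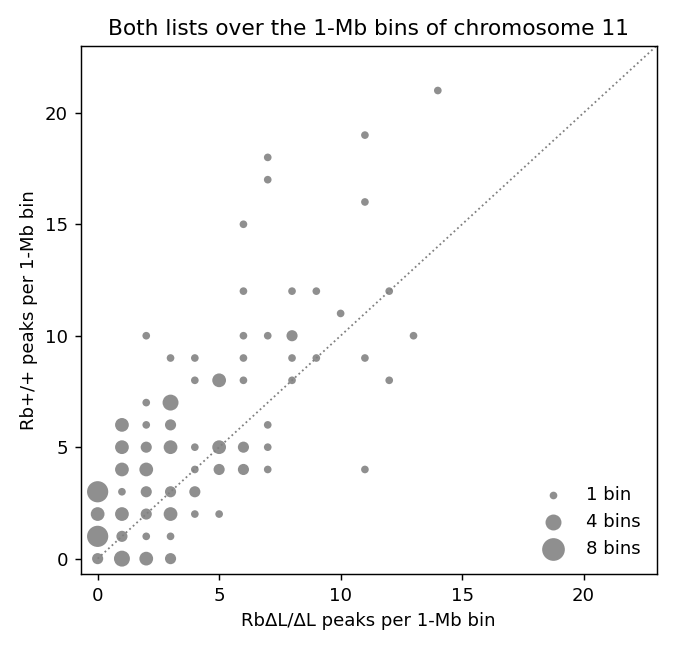
Rb+/+ against RbΔL/ΔL peaks in the 119 bins of 1 Mb from 3 Mb on, with the point area growing with the number of bins at the same place and the line of equal numbers dotted. More bins lie above the line (73) than below it (31), and the bin with 11 RbΔL/ΔL and 4 Rb+/+ peaks stands alone below it.

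The bins of chromosome 11 were also fuller at their median, not only at the top. The median bin held 4 Rb+/+ and 3 RbΔL/ΔL peaks, against 2 in each list over the 2306 bins of the other autosomes. At the upper quartile there were 7.5 and 6 peaks against 5 and 4. Bins with 10 or more peaks made up 14.3% of the chromosome 11 bins in Rb+/+ (17 bins) and 7.56% in RbΔL/ΔL (9 bins). Elsewhere they made up 4.90% (113 bins) and 1.91% (44 bins). When the fullest 10% of bins were left out on chromosome 11 and over the other autosomes alike, an alternative chosen after seeing the data, the ratio of mean counts per bin was 1.72 in Rb+/+ and 1.49 in RbΔL/ΔL. The remaining bins were thus also fuller than the remaining bins elsewhere. Over all peaks the ratio of densities was 1.62 and 1.44. Density chose the chromosome, so fuller bins follow from that choice. Single bins elsewhere were fuller: chromosome 10 reached 27 Rb+/+ and 21 RbΔL/ΔL peaks in 1 bin.

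Empty stretches lay mostly on the proximal side, with 10 of 11 empty bins in Rb+/+ and 12 of 19 in RbΔL/ΔL. In Rb+/+, 11 of the 119 bins (9.24%) held no peak, the lowest share of any autosome. In RbΔL/ΔL, 19 bins (16.0%) were empty, which ranked 15 from the top among 19. The pooled shares of the other autosomes were 18.2% and 20.3%. The share of empty bins falls as peaks per Mb rise, and peaks per Mb chose the chromosome. Only 2 bins, 12 to 13 Mb and 14 to 15 Mb, were empty in both lists, whereas 9 were empty in Rb+/+ alone and 17 in RbΔL/ΔL alone.

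The longest distance between neighbouring Rb+/+ peaks was 4.67 Mb, from 11850631 to 16518222, and the RbΔL/ΔL list had 4 peaks within it, none with a score above 91.24. The next Rb+/+ distances were 3.15 Mb from 8559642 to 11708915, 2.38 Mb from 17207748 to 19587089, 2.13 Mb from 25145204 to 27273855 and 1.59 Mb from 21010635 to 22595836. These 5 stretches all lay between 8 and 28 Mb, and RbΔL/ΔL cells had 3 to 5 peaks inside each.

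The 5 longest RbΔL/ΔL distances were scattered over the chromosome. They measured 3.27 Mb from 90499622 to 93770120, 2.89 Mb from 6526194 to 9419836, 2.87 Mb from 80242742 to 83115879, 2.79 Mb from 40497657 to 43283754 and 2.54 Mb from 35794529 to 38330614. Inside them lay 10, 6, 7, 4 and 4 Rb+/+ peaks. The stretch from 90499622 began at a strong shared site and had no RbΔL/ΔL peak although Rb+/+ listed 10 there, the highest with a score of 80.83. None of the 5 longest stretches of either list was therefore empty in the other. With both lists combined, the longest peak-free stretch was 1.96 Mb, from 13846093 to 15803016, followed by 1.57 Mb from 11937478 to 13503824.

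Neighbouring peaks were closer on chromosome 11 than on any other autosome in each list. The median distance was 77.5 kb in Rb+/+ (quartiles 26.4 and 236 kb, 617 distances) and 122 kb in RbΔL/ΔL (quartiles 41.5 and 299.5 kb, 436 distances). The other autosomes had pooled medians of 128 and 179 kb. Distance and density are measures of the same thing, so the close spacing follows from the way the chromosome was chosen. Scaled to the mean distance, the middle of the distribution was ordinary: the median over the mean was 0.404 in Rb+/+ and 0.451 in RbΔL/ΔL, ranks 13 and 11 of 19 autosomes. Some of the short scaled RbΔL/ΔL distances were smaller than elsewhere. Their percentile 10 was 0.0368 of the mean, against 0.0477 on the other autosomes, and percentile 7 was 0.0205 against 0.0305. At percentile 1 they were larger, 0.00187 against 0.00136. In Rb+/+ percentile 10 was larger on chromosome 11, 0.0409 against 0.0378. The variance of the bin counts over their mean ranked 3 of 19 in RbΔL/ΔL (3.03) and 6 of 19 in Rb+/+ (3.57).

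**Figure D4:**
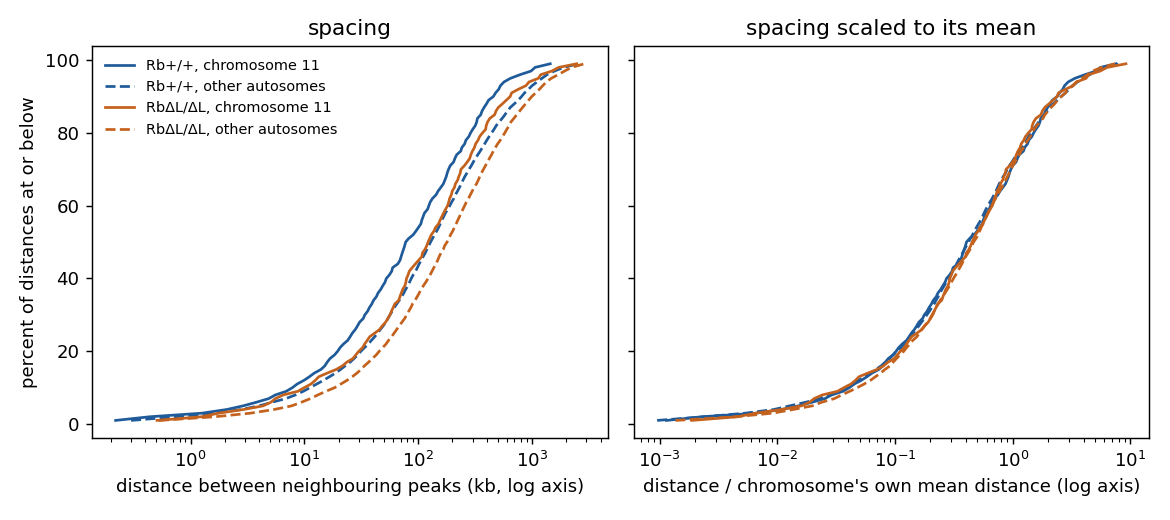
Percentiles of the distance between neighbouring peaks on chromosome 11 (solid) and the other autosomes (dashed) in Rb+/+ (blue) and RbΔL/ΔL (orange), in kb (left) and divided by each chromosome's own mean distance (right), both on log axes. The solid lines lie to the left of the dashed lines of their list in kb, with medians of 77.5 against 128 kb and 122 against 179 kb, while on the scaled axis the lines lie close together through the middle, with the RbΔL/ΔL line of chromosome 11 to the left at percentile 10 (0.0368 against 0.0477).

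Peaks with a neighbour of their own list no more than 10 kb away numbered 136 in Rb+/+ (22.0%, interval 18.8 to 25.5%). The RbΔL/ΔL list had 85 of them (19.5%, interval 15.8 to 23.5%). The other autosomes had 16.9% and 11.6%. The RbΔL/ΔL share was the highest of any autosome, above the 14.9% of chromosome 7 (interval 11.5 to 18.8%). Chromosome 19, with a RbΔL/ΔL density of 3.36 per Mb against the 3.59 of chromosome 11, had 13.6% (interval 9.23 to 19.0%). Both intervals overlapped that of chromosome 11. The Rb+/+ share ranked 3 of 19, after chromosomes 17 and 15. Such shares grow with the number of peaks per Mb, which chose the chromosome. Since clustered peaks come in sets, these intervals are too narrow. With both lists trimmed to their 6437 highest-scoring peaks, the Rb+/+ share fell to 16.4% (lower bound of its interval 13.2%), below the RbΔL/ΔL share, so the order of the genotypes depended on the length of the lists. The other autosomes then had 14.3% in Rb+/+, within that interval, so the higher Rb+/+ share of chromosome 11 was not separated from theirs in the trimmed list.

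Most clustered peaks were pairs. Rb+/+ peaks formed 50 pairs and 11 groups of 3 or more, and RbΔL/ΔL peaks formed 37 pairs and 3 groups of 3 or more. The only group of 5 in Rb+/+ spanned 15601 bp from 86381234 to 86396834, with scores of 54.34 to 93.66, and a single RbΔL/ΔL peak lay in its span without overlapping any of them. The only group of 5 in RbΔL/ΔL spanned 25909 bp from 94777592 to 94803500, with scores of 56.7 to 80.18, and again 1 peak of the other list lay in its span without overlapping. The largest groups thus consisted of weak peaks and were listed as groups in 1 genotype each. A group of 4 Rb+/+ peaks, from 69208962 to 69231776 in the fullest megabase, was of another kind: its highest score was 794.16 and 2 of its members were overlapped by RbΔL/ΔL peaks.

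Few peaks were listed at the same place in both genotypes. On chromosome 11, 89 Rb+/+ peaks had a counterpart, meaning a RbΔL/ΔL peak sharing 1 bp or more (14.4%, interval 11.7 to 17.4%), against 13.0% of all Rb+/+ peaks. In the other direction 89 RbΔL/ΔL peaks had a Rb+/+ counterpart (20.4%, interval 16.7 to 24.5%), against 16.6% of all RbΔL/ΔL peaks. Set beside the other autosomes, chromosome 11 was higher by 1.34 percentage points in Rb+/+ (Newcombe interval -1.33 to 4.42). For RbΔL/ΔL peaks the difference was 3.89 points (interval 0.251 to 8.03). The first interval included 0. The second did not, but chromosome 17 was higher with 22.4%. Neither these intervals nor those of the differences below were adjusted for the choice among 19 autosomes. Merging both lists gave 965 sites on chromosome 11, of which 88 were in both (9.12%), 529 in Rb+/+ alone and 348 in RbΔL/ΔL alone. On the other autosomes 956 of 12234 sites were in both (7.81%).

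Overlap rose steeply with the score, as on the other autosomes. In Rb+/+ it was 3.17% of 252 peaks below 60, 6.42% of 265 between 60 and 100, 43.5% of 62 between 100 and 200, and 94.9% of 39 at 200 or more. In RbΔL/ΔL the shares were 4.41% of 136, 12.7% of 237, 73.2% of 41 and 100% of 23, the last with a lower limit of 85.2%. The RbΔL/ΔL band from 100 to 200 lay furthest from the other autosomes, which had 56.3% there. The intervals were 57.1 to 85.8% and 52.0 to 60.6%. They overlapped, which does not decide whether the shares differed, and no interval of the difference was computed. If every score band had been shared as often as on the other autosomes, chromosome 11's mix of scores would have given 15.3% in Rb+/+ and 17.8% in RbΔL/ΔL.

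**Figure D5:**
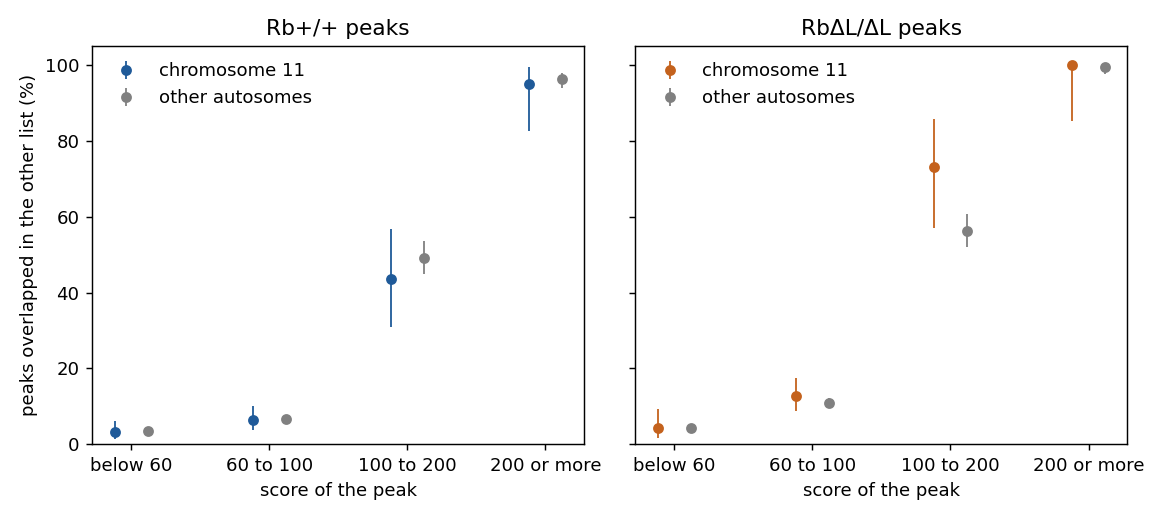
Percent of peaks overlapped by at least 1 bp in the other list, by score band, on chromosome 11 (coloured) and on the other autosomes (grey), with exact 95% binomial intervals. All 8 pairs of intervals overlap, which does not show that the shares are equal. The widest separation is in RbΔL/ΔL between 100 and 200, at 73.2% against 56.3%.

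Strong peaks were more frequent on chromosome 11 in Rb+/+. There were 101 with a score of 100 or more, 16.3% of its peaks against 12.5% on the other autosomes, a difference of 3.85 points (interval 1.04 to 7.06). Chromosome 5 had a slightly higher share. In RbΔL/ΔL there were 64, or 14.6% against 13.1%, a difference of 1.54 points whose interval (-1.59 to 5.26) included 0. Of the 101 strong Rb+/+ peaks, 64 had a counterpart (63.4%), against 68.1% of all strong Rb+/+ peaks. The other autosomes had 68.8%, a difference of -5.40 points (interval -15.6 to 3.86). Of the 64 strong RbΔL/ΔL peaks, 53 had a Rb+/+ counterpart (82.8%), against 70.7% of all strong RbΔL/ΔL peaks. The other autosomes had 69.7%, a difference of 13.1 points (interval 1.63 to 21.1). The strong sites left unmatched on chromosome 11 were 37 in Rb+/+ and 11 in RbΔL/ΔL.

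The strongest site of the chromosome was the same in both lists, at 98063561 to 98064553 in Rb+/+ (score 1767.63, rank 3 of the whole list) and at 98063650 to 98064364 in RbΔL/ΔL (score 1022.94, rank 7). The RbΔL/ΔL peak lay wholly inside the Rb+/+ peak. The second Rb+/+ site, 29072314 to 29073139 (score 986.18), had its counterpart at 29072624 to 29073266 (score 625.74). It stood on the sparser proximal side, where its counterpart closed a stretch of 2.08 Mb without RbΔL/ΔL peaks.

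The third, 72503289 to 72503900 (score 874.65), was rank 18 in Rb+/+ but its counterpart at 72503094 to 72503884 (score 359.87) was rank 98 in RbΔL/ΔL. The fourth, 53113757 to 53114330 (score 841), had nearly the same edges in RbΔL/ΔL, at 53113762 to 53114361 (score 797.83), where it ranked 14 of the whole list against 21 in Rb+/+. The fifth, 70460320 to 70460986 (score 797.94), lay at 70460198 to 70460964 in RbΔL/ΔL (score 632.05), with ranks of 24 and 23. The last of the 5 highest shared sites of the RbΔL/ΔL list was 119161302 to 119161803 (score 490.45). It lay inside a Rb+/+ peak of 1114 bp, the widest of the chromosome, at 119160829 to 119161942 (score 610.68).

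Where 1 peak met exactly 1 partner, the scores of the 86 pairs had a Spearman's rho of 0.75, as did the 945 pairs of the other autosomes (0.75). The Rb+/+ peak was the wider in 59 pairs (68.6%, against 68.9% elsewhere), with median widths of 566 and 432.5 bp. The centres lay a median of 69.75 bp apart, against 79 bp elsewhere. Elsewhere the median widths were 512 and 431 bp. The RbΔL/ΔL peak lay wholly within the Rb+/+ peak in 31 pairs (36.0%, against 35.2% elsewhere), and the reverse held in 5 (5.81%, against 11.6%). The pairs of chromosome 11 were thus close to the others in the order of scores and the distance of centres, with a wider median Rb+/+ peak and fewer Rb+/+ peaks inside their partner. These differences were not tested.

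The strongest unmatched Rb+/+ peaks lay at 69793596 to 69793953 (score 282.78), 101177137 to 101177650 (score 211.31), 78349688 to 78350156 (score 197.03), 6315675 to 6316339 (score 170.81) and 69179985 to 69180491 (score 149.17). Their nearest RbΔL/ΔL peaks were 16.8, 138, 208, 48.8 and 28.6 kb away. The first and the last lay in the fullest megabase, 69 to 70 Mb, so unmatched sites occurred beside matched ones. The strongest unmatched RbΔL/ΔL peak, at 69393419 to 69393967 (score 150.6), also lay there, 293 bp from a Rb+/+ peak with a score of 432.12. That Rb+/+ peak already had a RbΔL/ΔL counterpart, at 69392307 to 69392936 (score 240.61). The unmatched peak was thus a further RbΔL/ΔL peak beside a shared site. The next strongest unmatched RbΔL/ΔL peaks lay at 67310488 to 67310684 (score 143.33), 97298984 to 97299443 (score 127.85), and, tied at a score of 126.88, at 106628887 to 106629056 and 29870265 to 29870442. Their nearest Rb+/+ peaks were 41.5, 18.6, 20.7 and 55.3 kb away. Signal too weak for the caller to list is not known for either genotype, so an unmatched peak need not mean an unbound site.

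Unmatched peaks still lay near peaks of the other genotype. Of the 348 unmatched RbΔL/ΔL peaks, 255 (73.3%) had a Rb+/+ peak within 100 kb, the highest share of any autosome and 13.2 points above the others' 60.1% (interval 8.10 to 17.8). Of the 529 unmatched Rb+/+ peaks, 325 (61.4%) had a RbΔL/ΔL peak within 100 kb, 4.72 points above the others' 56.7% (interval 0.334 to 8.95). These shares grow with the number of peaks on the chromosome, which chose it. The median distance to the nearest peak of the other list was 47.2 kb for RbΔL/ΔL and 71.9 kb for Rb+/+ unmatched peaks. Within 1 kb of a peak of the other list lay 20 unmatched Rb+/+ peaks (3.78%, against 2.53% elsewhere) and 22 unmatched RbΔL/ΔL peaks (6.32%, against 2.74%). Unmatched peaks were weaker than shared ones, with median scores of 61.17 against 166.27 in Rb+/+ and 62.69 against 126.88 in RbΔL/ΔL.

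Rb+/+ peaks outnumbered RbΔL/ΔL peaks by 1.41 to 1 on chromosome 11 (interval 1.25 to 1.60), the highest ratio of the 19 autosomes, against 1.26 over the others (interval 1.22 to 1.30). Chromosome 7 followed with 1.36, and the intervals of chromosome 11 and the others overlapped. The surplus was in unmatched peaks, with a ratio of 1.52 against 1.31 elsewhere, since shared peaks are nearly equal in number by definition. Along the chromosome, the interval of the ratio lay above 1 from 30 to 40 Mb (34 and 18 peaks), 50 to 60 Mb (55 and 32), 80 to 90 Mb (60 and 34), 110 to 120 Mb (59 and 35) and in the last 1.84 Mb (22 and 8). In the other 8 steps it included 1, and from 10 to 30 Mb the RbΔL/ΔL list held the more peaks, 16 against 12 and 26 against 25. All 13 intervals included the ratio of the whole chromosome, 1.41, so differences between the steps were not separated from counting error. With both lists trimmed to 6437 peaks the ratio was 1.10 on chromosome 11 and 0.990 over the other autosomes.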

How the data were processed

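CAP-D3 ChIP-seq peaks of 1 Rb+/+ and 1 RbΔL/ΔL library were analysed. Reads were processed with Bowtie 1.0 and MACS 1.4.2 on mm9, per the submitters' processing notes. Parameters, control library and duplicate handling, which can change which weak or repeat-region peaks are listed, are not stated in those sources. The authors called peaks per sample and deposited a score for each peak.

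Peaks on chromosome 11 were compared with the other 18 autosomes in Python 3.11.15 (numpy 2.4.6, pandas 2.3.3, scipy 1.17.1), with mm9 lengths from GenomeInfoDb 1.38.1. Peaks were binned by midpoint (1 Mb), overlap needed 1 bp, distances ran edge to edge, and starts are 1-based. Poisson, Clopper-Pearson, conditional ratio and Newcombe intervals are at 95%. Functions were tested on simulated data. Named regions are the 5 highest-scoring shared and unmatched peaks, 5 fullest bins, 5 longest distances and groups of 5 peaks of each list. Others named (a group of 4, bins and steps beyond these) were picked after their values were seen. Members, rules and measures were chosen with earlier results of these data known. Gene annotation of another build was not used.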

Additional observations from a re-analysis of the deposited data

How the results depend on the processing

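Among 45 alternatives tried on 14 results, 23 gave close values and 22 gave values that moved. Whether a moved value reversed a direction was not scored. Close meant within the 95% interval, within 1.5 times for numbers of peaks, or within 0.1 for correlations. Leaving out the fullest 10% of bins was added after seeing the data. With a score of at least 100 in both lists (101 and 64 peaks left), the density relative to the other autosomes was 2.12 in Rb+/+ and 1.61 in RbΔL/ΔL, overlap 48.5% and 76.6%, peaks within 10 kb of another 3.96% and 6.25%, and empty bins 56.3% and 65.5%. The distal-to-proximal ratio was 2.74 in Rb+/+. Fewer peaks enter at that minimum. Equal list lengths gave 17.7% overlap and 16.4% clustered peaks in Rb+/+. A reciprocal overlap of 50% gave 10.7% and 15.1%, and edges within 1 kb gave 17.6% and 25.4%. At a distance of 5 kb, clustered peaks were 13.8% and 11.2%. At 50 kb they were 59.5% and 45.3%, which follows from the wider limit. Without the fullest 10% of bins the distal-to-proximal ratio was 1.79 (interval 1.47 to 2.18) and 1.48 (interval 1.17 to 1.87), both still above 1. Peaks without a counterpart gave a rho of 0.56 between the lists. No paired analysis was possible because there was a single library per genotype, so none could be left out either. Read depth is unknown, so its effect on the lists could not be assessed.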
